A study of Homo sapiens with 9 samples.

Results

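Transfection of H2030 cells with small interfering RNAs (siRNAs) against exon 11a of ENAH was compared with transfection with non-targeting siRNA, across all genes. The comparison used 6 of the 9 libraries of the series, the 3 titled SiMENA11a (called siMENA11a here) and the 3 titled Control (control), chosen by their titles. It tested 13498 of the 29972 genes in the deposited table. The other 3 libraries, titled SiMENA (siMENA), came from cells transfected with siRNA against all isoforms of ENAH. They lend their spread to the fit and are given beside the values of interest. H2030 is a standard cell line from a human non-small cell lung cancer, and all 3 groups are this line in the same medium.

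Each group received siRNA at 20 nmol/L with the lipid reagent Lipofectamine RNAiMAX. The control cells received the ON-TARGETplus non-targeting pool, the siMENA11a cells a mix of 3 siRNAs that each match 21 nucleotides of the exon, and the siMENA cells the siGENOME pool for ENAH. The 3 preparations thus differ in their sequences and product lines as well as in their target, and these differences and the loss of exon 11a cannot be told apart in this design. Libraries were made from ribosome-depleted total RNA with a stranded kit and read as pairs of 75 bases. Nothing in the labels says that the 3 libraries of a group are separate cultures, so p-values measure the spread between libraries, which may be technical. No label states the time from transfection to harvest.

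ENAH encodes hMENA, a member of the Ena/VASP family, which binds the growing ends of actin filaments and lets them lengthen. Exon 11a is a short coding exon that epithelial cells splice into the transcript, and the splicing factors ESRP1 and ESRP2 promote its inclusion. The study's design text names RIG-I, a sensor of RNA in the cytoplasm encoded by DDX58, and asks which programmes change when hMENA11a is lowered. In that pathway RIG-I and MDA5 signal through the adaptor MAVS to kinases that activate IRF3 and IRF7, which switch on interferon genes. Secreted interferon binds IFNAR1 and IFNAR2, and JAK1 and TYK2 then activate STAT proteins. These join IRF9 on interferon-stimulated response elements in the promoters of antiviral genes. An siRNA can also lower transcripts other than its target when bases 2 to 8 of its guide strand, the seed, pair with their 3′ untranslated region (3′ UTR).

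The targeted gene does not check the label here, because its value is summed over isoforms. All values are scaled TPM, that is transcripts per 1000000 divided by a size factor per library. ENAH was measured at 43.6, 43.2 and 44.7 TPM in control and at 46.7, 47.5 and 48.7 TPM in siMENA11a, against 6.89, 7.30 and 7.48 TPM in siMENA. The siMENA11a libraries lay slightly above all controls, with a log2 fold change of 0.12 ± 0.038 (limma adjusted p = 0.0247). That sign rests on the scaling, since it was -0.014 in TPM as deposited, and the call was lost without control library 1 or 2 or siMENA11a library 2 or 3 (adjusted p = 0.0546 to 0.0773). The direct contrast placed ENAH 2.64 higher on the log2 scale in siMENA11a than in siMENA. Exon 11a itself cannot be read from a table of gene values. ESRP1 was listed at 0 in 5 of the 6 libraries and at 0.0200 TPM in the sixth. ESRP2 was measured at 10.96, 11.4 and 10.3 TPM in control and 9.85, 9.74 and 9.02 TPM in siMENA11a (-0.18 ± 0.053, adjusted p = 0.0151), and that call was lost without control library 2 (0.0575) or siMENA11a library 3 (0.0614) and in TPM rescaled without small RNAs (0.145).

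Each library held 12258 to 12379 genes at 1 TPM or more. Size factors were 0.995 to 1.04 in control and 0.886 to 0.973 in siMENA11a. Small and structured RNAs took 57.5% to 59.4% of the TPM in control and 63.2% to 65.5% in siMENA11a, and their part in the changes of other genes was not tested beyond the scalings given below. Across genes, which are no replicates, log values correlated at 0.978 to 0.985 within groups and at 0.958 to 0.964 between them. RNA18S5 and RNA28S5, 2 ribosomal RNAs that depletion removes, were listed at 597 and 415 TPM in siMENA11a library 1 and at 0 in the other 5. Leaving that library out gave 7036 calls against 7503. Of 10 epithelial markers 6 were tested, with summed levels of 395 to 407 TPM in control and 363 to 376 TPM in siMENA11a, nearly all from keratins KRT7, KRT8 and KRT18 and from MUC1. CDH1, KRT19 and CLDN4 stayed under 0.5 TPM in these 6 libraries, and none of 13 lung lineage markers was tested. Of 15 leukocyte markers 13 were under the filter, and CD68, which many cells carry in lysosomes, made up nearly all of the rest.

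The exon is shown first because its bases recur in the transcripts that fell most. In the reference annotation (GENCODE 29, GRCh38) it lies at chr1:225504991-225505053 on the minus strand, is 63 bases long and is coding. The capitals mark 8 bases that hold the words CCAAGGA and CAAGGAA, starting at bases 11 and 12 of the exon.

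ENAH exon 11a: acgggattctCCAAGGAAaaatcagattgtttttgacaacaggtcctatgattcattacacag

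All 57 words of 7 bases in the exon and their reverse complements, 114 in all, were looked up in the 3′ UTRs of 11796 tested genes. For each word the median log2 fold change of the genes that carry it was set against that of the others. CCAAGGA carriers lay -0.11 and CAAGGAA carriers -0.10 from the other genes, while the other 112 words gave differences of -0.063 to 0.046. The nearest of those was the word at base 2 of the exon, at -0.063, followed by the word at base 1, at -0.045. These words were first picked on this same comparison in earlier work, so the differences are a description and no test. The sequences of the 3 siRNAs were not analysed here, and whether one of them starts at these bases was not tested.

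**Figure D1:**
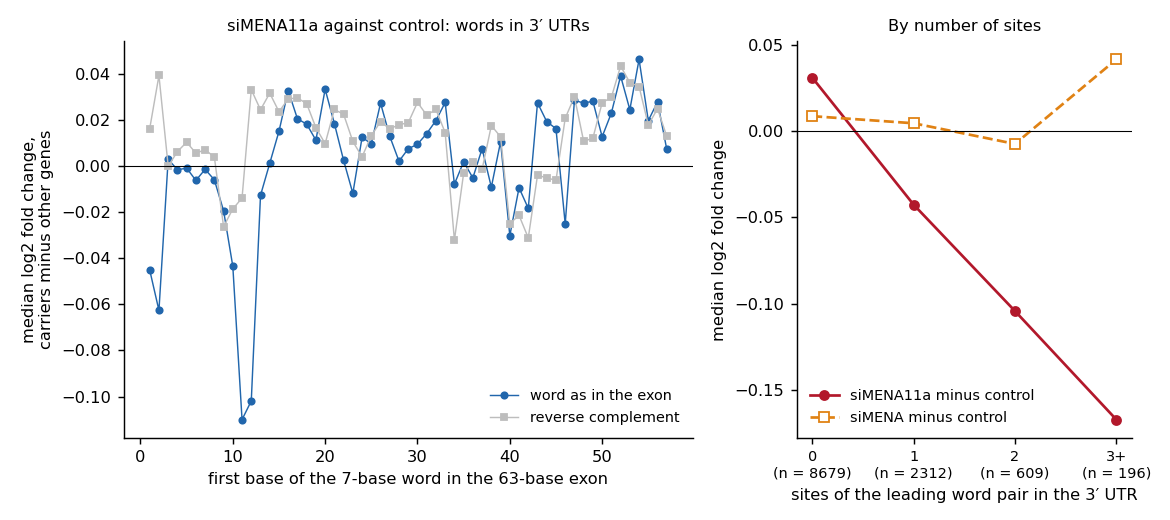
Left: for each 7-base word of the 63-base exon (x axis, first base), the median log2 fold change of genes with that word in the 3′ UTR minus that of the other genes (y axis), in the exon's sense and as the reverse complement; the words at bases 11 and 12 lie lowest, at -0.11 and -0.10. Right: median log2 fold change by the number of sites of these 2 words, which goes from 0.031 with no site to -0.17 with 3 or more for siMENA11a and stays between -0.0073 and 0.042 for siMENA.

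Genes with more sites had lower medians. The 8679 genes without either word had a median log2 fold change of 0.031. The median was -0.043 in the 2312 genes with 1 site, -0.10 in the 609 genes with 2 and -0.17 in the 196 genes with 3 or more. Among the 678 genes with all 8 bases in a row the median was -0.15, and 7.23% of them were called at least 2-fold lower, against 0.760% of the genes without either word. In siMENA against the shared controls the same classes by number of sites had medians of 0.0088, 0.0046, -0.0073 and 0.042. One of the 2 words occurs in 26.4% of all genes searched, in 60.7% of the 168 searched genes called at least 2-fold lower, and in 21.4% of the 126 called at least 2-fold higher. The words were picked for the low medians of their carriers, so these shares follow in part from that choice.

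Across all genes, 55.6% of the 13498 tested passed the limma threshold (adjusted p under 0.05) in either direction. Those called higher made up 27.9% of the tested genes and those called lower 27.7%. These 2 shares are the background printed for counts of list members below. They are not matched for level, and the split of calls changed with level. For 62.9% of tested genes the siMENA11a libraries all lay on one side of the controls, 4333 above and 4151 below. Most changes were small. The absolute log2 fold change of called genes had a median of 0.36, while 168 genes were at least 2-fold higher and 186 at least 2-fold lower. Of the called genes, 50.2% were higher with the size factors used, 28.6% in TPM as deposited and 64.2% in TPM rescaled without small RNAs. The median over all tested genes moved from 0.015 to -0.11 and 0.10 with those 2 scalings, so small changes are relative to it.

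Large rises were more common among genes low in control and large falls among genes high in control, partly by construction. A gene averaging under 0.5 TPM in control was tested only if another group averaged higher. With 0.5 added to each value before the log, such a gene could not be called at least 2-fold lower. The count at least 2-fold higher was 292 with 0.1 added and 105 with 1 added. Among the 25% of genes with the lowest control means, up to 3.19 TPM, 117 were at least 2-fold higher and 16 at least 2-fold lower. Among the 25% with the highest means, from 23.7 TPM, 8 were at least 2-fold higher and 91 at least 2-fold lower. The share called grew with the level, from 37.1% in the lowest of these 4 parts through 53.3% and 62.8% to 69.2% in the highest. In the lowest part 896 of 3375 genes were called higher and 357 lower. In the highest, also 3375 genes, 868 were higher and 1466 lower. For lists of highly expressed genes the share of falls at their level is thus above 27.7%. Of the 168 large rises 26 belong to 7 lists of interferon pathway genes and 5 are small RNAs. None of the 186 large falls is on those lists, and 21 are histone genes, whose near-identical copies make their values uncertain. The 25 largest rises and the 25 largest falls named below leave out small RNAs, histones, pseudogenes, unnamed clones and read-through transcripts.

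**Figure D2:**
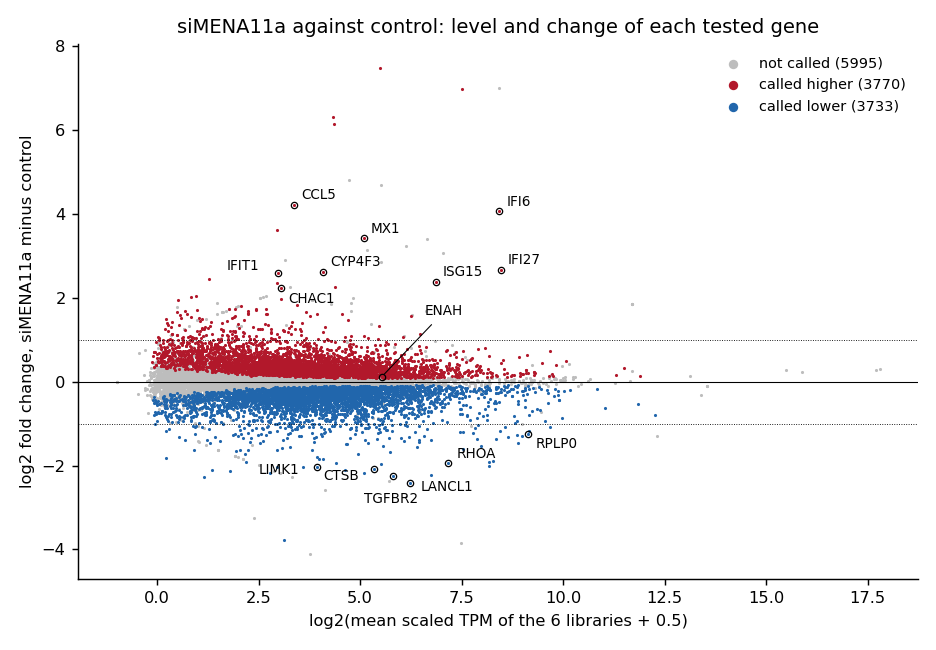
Each point is 1 tested gene, with the log2 of its mean scaled TPM over the 6 libraries plus 0.5 (x axis) and its log2 fold change of siMENA11a minus control (y axis); colour gives the limma call and dotted lines mark 2-fold. The interferon-stimulated genes named at the top, up to 4.22 for CCL5, stand apart from falls such as LANCL1 (-2.42), and the unnamed points above 6 are small RNAs.

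Among sensors of RNA, those that are themselves induced by interferon were higher in siMENA11a. DDX58, which encodes RIG-I, was measured at 8.57, 8.01 and 7.69 TPM in control and 14.6, 15.9 and 15.5 TPM in siMENA11a. Every siMENA11a library lay above every control, a rise of 0.88 ± 0.060 on the log2 scale (adjusted p = 2.71e-06). IFIH1, which encodes the related sensor MDA5, went from 4.62, 4.61 and 4.62 TPM to 8.11, 9.72 and 11.1 TPM (0.98 ± 0.093). DHX58, the third member of that family, went from 4.75, 4.72 and 4.41 TPM to 11.04, 11.98 and 11.8 TPM (1.24 ± 0.053). EIF2AK2, which encodes the double-stranded RNA kinase PKR, rose by 1.10 ± 0.042 and DDX60, a helicase linked to RIG-I signalling, by 1.81 ± 0.097. TLR3, the endosomal sensor of double-stranded RNA, rose by 0.72 ± 0.099.

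Not all genes of the pathway were higher. MAVS was measured at 12.5, 12.4 and 13.3 TPM in control and 10.3, 9.39 and 9.94 TPM in siMENA11a, and fell by 0.35 ± 0.054 on the log2 scale (adjusted p = 0.000436). In siMENA it stood lower still, at 6.79, 6.79 and 7.38 TPM, so the direct contrast put siMENA11a 0.47 above siMENA. IRF3 went from 30.4, 27.01 and 28.7 TPM to 22.96, 22.98 and 23.1 TPM, and fell by 0.31 ± 0.043. PCBP2, which promotes the breakdown of MAVS protein, fell by 0.36 ± 0.028. Over the 22 RNA sensors and adaptors, 15 passed the test as higher and 4 as lower (median log2 fold change 0.35), against 27.9% higher, 27.7% lower and a median of 0.015 over all tested genes. The median of the same list in siMENA against control was -0.034.

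Interferon transcripts themselves were at or near 0. IFNB1 and IFNL1, which encode interferons beta and lambda 1, were each listed at 0 in all libraries except siMENA11a library 2, at 0.0880 and 0.165 TPM. IFNA1 and IFNK were listed at 0 in all 9 libraries. IFNAR1, the first chain of the type I receptor, was measured at 14.3, 14.3 and 12.97 TPM in control and 16.2, 16.5 and 17.4 TPM in siMENA11a (0.26 ± 0.054, adjusted p = 0.00246). IFNAR2, the second chain, went from 19.2, 18.6 and 21.3 TPM to 12.99, 12.1 and 12.3 TPM and stood at 12.5, 12.9 and 11.6 TPM in siMENA. Both knockdowns lay below all controls for IFNAR2, with a log2 fold change of -0.64 ± 0.060 for siMENA11a, and the direct contrast between them was 0.015 ± 0.060 (adjusted p = 0.849). TYK2 was at -0.14 ± 0.036 and passed the test, but not in TPM rescaled without small RNAs (adjusted p = 0.293), and IFNAR1 did not pass in TPM as deposited (adjusted p = 0.176). The list of ligands, receptors and JAK kinases had 2 higher and 3 lower of 10 tested.

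The factors that carry the signal to the nucleus were mixed, with IRF7, IRF9 and STAT2 among those higher. IRF7 was measured at 6.66, 6.03 and 6.05 TPM in control, 14.4, 16.6 and 15.8 TPM in siMENA11a and 6.28, 6.06 and 6.76 TPM in siMENA, a rise of 1.25 ± 0.067 against control (adjusted p = 5.71e-07). IRF9 went from 29.6, 30.5 and 30.8 TPM to 49.01, 53.9 and 54.3 TPM (0.78 ± 0.047). STAT2, which binds IRF9, rose by 0.51 ± 0.060, and none of these 3 genes overlapped between the groups (62.9% of all tested genes did not overlap). STAT3, which answers other cytokines, fell by 0.42 ± 0.032. IRF1, a factor of the interferon gamma response, was at -0.20 ± 0.072 (adjusted p = 0.0352), a call lost without control library 1 or 3 or siMENA11a library 2 or 3 (0.0788 to 0.117), with the replicate number as a block (0.0663), with no filter (0.0591) and in TPM rescaled without small RNAs (log2 fold change -0.13, 0.168). Of 16 STAT and IRF genes, 7 were called higher and 5 lower (median 0.21).

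Antiviral effectors were the list with the highest median. Of 31 tested, 27 were called higher and 4 lower, 12 of them at least 2-fold higher, and the median log2 fold change was 0.72. The median of the same genes was -0.14 in siMENA against control, and 26 were higher in siMENA11a than in siMENA by the direct contrast with 0 lower. MX1, a GTPase that traps viral nucleoproteins, was measured at 4.92, 5.52 and 5.33 TPM in control, 53.97, 61.7 and 69.2 TPM in siMENA11a and 3.38, 4.41 and 4.21 TPM in siMENA. The lowest siMENA11a library lay far above the highest of the other 6, with a log2 fold change of 3.43 ± 0.11 against control (adjusted p = 3.44e-08). IFIT1, which binds viral RNA lacking a mature cap, went from 1.86, 1.57 and 1.74 TPM to 11.3, 13.2 and 14.2 TPM (2.59 ± 0.10). IFIT2, IFIT3 and IFIT5 of the same family rose by 1.51, 1.39 and 1.27. OAS2, which makes the messenger that activates RNase L, went from 2.91, 2.61 and 3.04 TPM to 11.1, 14.3 and 13.1 TPM (1.98 ± 0.11).

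Several effectors with low values in control were higher too. One of them, OASL, passed the filter only through siMENA11a, with means of 0.24 TPM in control and 0.21 TPM in siMENA. OASL, which enhances RIG-I signalling, was at 0.231, 0.269 and 0.220 TPM in control and 1.91, 2.46 and 3.54 TPM in siMENA11a (2.05 ± 0.18). SAMD9, a restriction factor of poxviruses, went from 4.55, 4.34 and 4.04 TPM to 15.5, 16.8 and 17.2 TPM (1.82 ± 0.067). IFITM1, a membrane protein that blocks viral entry, went from 2.66, 3.47 and 2.09 TPM to 7.47, 9.08 and 11.6 TPM (1.61 ± 0.17). None of these 3 genes overlapped between the groups, which the selection required of OASL and SAMD9 (62.9% of all tested genes did not overlap). RSAD2, which encodes viperin, was under the filter, at 0.0201, 0 and 0 TPM in control and 0.102, 0.341 and 0.360 TPM in siMENA11a. BST2, which encodes tetherin and was named after its values were seen, was listed at 0 in all controls and at 0.530, 1.88 and 1.45 TPM in siMENA11a, and it was not tested because its mean over the 9 libraries was under 0.5 TPM. The 4 effectors called lower, named after their values were seen, were the cytidine deaminase APOBEC3B and the guanylate-binding proteins GBP1, GBP2 and GBP3, which are known as targets of interferon gamma. GBP2 lost its call without control library 1 or 2 or siMENA11a library 3 (adjusted p = 0.0657 to 0.0755) and in TPM rescaled without small RNAs (0.0814). GBP3 lost its call without control library 1 or 3 or siMENA11a library 2 or 3 (0.0752 to 0.122), in rescaled TPM (log2 fold change -0.14, 0.187), with no filter (0.0615) and with the 6 libraries fitted alone (0.0572).

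Other interferon-stimulated genes held the 2 largest rises outside small RNAs. CCL5, a chemokine that attracts T cells and natural killer cells, was at 0.211, 0.864 and 0.611 TPM in control, 14.3, 18.4 and 24.4 TPM in siMENA11a and 0, 0.149 and 0.193 TPM in siMENA. IFI6, a small protein that protects cells from viral replication and apoptosis, was at 35.9, 36.5 and 41.7 TPM in control, 586, 689 and 667 TPM in siMENA11a and 16.7, 17.7 and 17.2 TPM in siMENA. The siMENA libraries lay below all controls for IFI6, and the direct contrast between the knockdowns reached 5.19 ± 0.070 (adjusted p = 2.17e-10), larger than the 4.07 against control. IFI27, a mitochondrial protein of the same family as IFI6, went from 95.4, 100.5 and 90.1 TPM to 589.9, 626 and 607 TPM (2.67 ± 0.044), while siMENA stood at 98.1, 93.7 and 98.3 TPM. XAF1, a factor that favours apoptosis, went from 0.342, 0.221 and 0.190 TPM to 2.76, 3.45 and 4.67 TPM (2.44 ± 0.18). XAF1 and CCL5 passed the filter only through siMENA11a. Their means were 0.25 and 0.56 TPM in control and 0.22 and 0.11 TPM in siMENA. IFI44L went from 6.32, 7.43 and 6.47 TPM to 29.5, 36.4 and 36.9 TPM (2.26 ± 0.089) and its neighbour IFI44 rose by 1.46 ± 0.096. The chemokines CXCL10 and CXCL11 were also under the filter, with CXCL10 at 0.158, 0.154 and 0.195 TPM and CXCL11 at 0.113, 0.231 and 0.216 TPM in siMENA11a. Over the 26 tested members of this list, 19 were called higher and 1 lower (median 0.54), and 23 were higher than in siMENA.

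Within siMENA11a, library 1, which also held the ribosomal RNAs, was the lowest of the 3 for 32 of the 46 effectors and other interferon-stimulated genes called higher (69.6%). Over all 7 interferon lists this was so for 54 of 85 genes called higher (63.5%), and over all tested genes for 46.2% of the 3770 called higher. Without that library the medians of antiviral effectors and of other interferon-stimulated genes were 0.71 and 0.56.

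**Figure D3:**
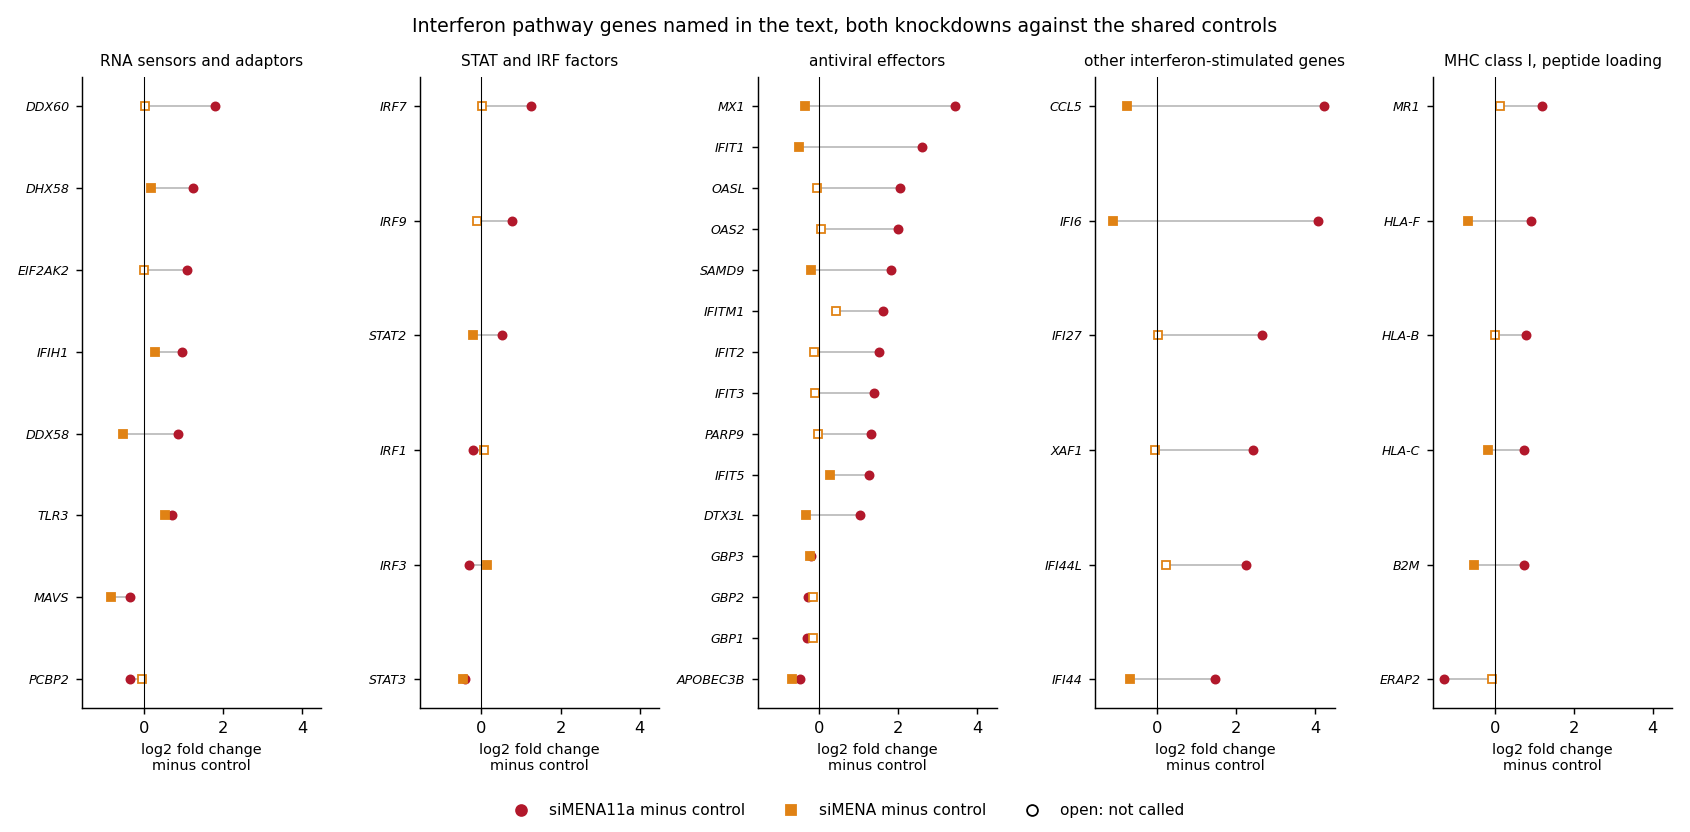
Log2 fold changes (x axis) of the tested members of 5 lists that the text names, in siMENA11a (red circles) and siMENA (orange squares) against the same 3 controls, with open symbols for genes not called. In siMENA11a the effectors reach 3.43 (MX1) and other interferon-stimulated genes 4.22 (CCL5), while the siMENA medians over all tested members of these 2 lists are -0.14 and -0.12.

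Promoters of 7 of these genes are shown because interferon-stimulated genes are read through the response element bound by STAT proteins and IRF9. The core GAAANNGAAA was searched on both strands in the window from 250 bases before to 50 after each start site of the RefSeq promoter table (GRCh38.p14), and copies that overlap were each counted. Capitals mark the core, or its reverse complement, in 120 bases before or around it. The first 5 genes are those with the largest rises among the 8 of the 25 that hold the core, DDX60 is the sensor among these 8, and PARP9 is an effector outside the 25 that shares its promoter with another gene.

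IFI6 (chr1:27672249-27672368, minus strand): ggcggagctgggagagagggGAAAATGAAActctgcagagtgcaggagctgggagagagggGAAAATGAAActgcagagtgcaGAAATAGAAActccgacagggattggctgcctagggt
MX1 (chr21:41431834-41431953, plus strand): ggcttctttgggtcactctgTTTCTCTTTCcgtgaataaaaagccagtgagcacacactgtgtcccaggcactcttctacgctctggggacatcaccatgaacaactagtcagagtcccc
IFI27 (chr14:94110616-94110735, plus strand): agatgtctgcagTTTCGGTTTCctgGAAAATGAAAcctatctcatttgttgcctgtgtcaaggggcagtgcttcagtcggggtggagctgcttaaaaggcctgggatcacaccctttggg
IFIT1 (chr10:89392503-89392622, plus strand): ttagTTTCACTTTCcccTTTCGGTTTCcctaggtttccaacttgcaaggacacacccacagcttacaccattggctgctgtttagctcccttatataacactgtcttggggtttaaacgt
ISG15 (chr1:1013377-1013496, plus strand): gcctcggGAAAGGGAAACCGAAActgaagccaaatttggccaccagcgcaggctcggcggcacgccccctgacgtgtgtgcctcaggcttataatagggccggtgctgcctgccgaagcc
DDX60 (chr4:168318753-168318872, minus strand): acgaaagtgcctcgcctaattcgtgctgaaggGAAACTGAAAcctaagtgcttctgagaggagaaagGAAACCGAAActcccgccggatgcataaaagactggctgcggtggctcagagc
PARP9 (chr3:122564301-122564420, minus strand): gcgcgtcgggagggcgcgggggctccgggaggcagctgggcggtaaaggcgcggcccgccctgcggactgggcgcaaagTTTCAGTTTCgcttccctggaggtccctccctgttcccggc

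IFI6 holds 3 copies of the core in this stretch. MX1 has 3 windows in the table, and 2 of them hold a single copy each, the one shown and one that lies after the start site. ISG15 holds 2 that overlap, IFIT1 2 on the other strand, and IFI27 1 on each strand. DDX60 holds 2 copies. PARP9 and DTX3L start in opposite directions from a shared promoter, and the single copy of PARP9 is the same stretch of genome as that of DTX3L. Both encode parts of an antiviral ubiquitin ligase complex. PARP9 went from 9.21, 9.21 and 10.3 TPM to 23.2, 24.7 and 25.5 TPM (1.31 ± 0.054) and DTX3L from 11.7, 11.4 and 11.4 TPM to 22.6, 24.6 and 24.2 TPM (1.02 ± 0.049). Neither overlapped between the groups, as was so for 62.9% of all tested genes. The table has no entry for CCL5.

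The core was present in 3.87% of the 10210 tested genes with a promoter in the table and in 3.57% of all 35116 windows. It was present in 8 of the 21 largest rises that have a promoter there (38.1%) and in 0 of the 20 largest falls. Among all genes at least 2-fold higher it was present in 20 of 107 (18.7%), and among those at least 2-fold lower in 7 of 148 (4.73%). It was present in 30 of 43 antiviral effectors and other interferon-stimulated genes (69.8%), whose median log2 fold change was 0.63 with the core and 0.63 without it. GBP1 and GBP3, effectors called lower (-0.30 and -0.20), hold the core too. Of the 395 tested genes with the core 33.4% were called higher and 24.8% lower, beside 27.9% and 27.7% of all tested genes. A match is only a run of letters, and binding was not measured.

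ISG15, a ubiquitin-like protein that is joined to other proteins during the interferon response, rose together with enzymes of its own pathway. ISG15 was measured at 38.4, 38.03 and 33.1 TPM in control, 162, 202 and 219.8 TPM in siMENA11a and 30.9, 28.4 and 27.6 TPM in siMENA, a rise of 2.39 ± 0.10 against control (adjusted p = 1.85e-07). UBE2L6, which conjugates it, went from 30.1, 28.5 and 27.6 TPM to 51.4, 54.8 and 52.1 TPM (0.87 ± 0.054). HERC6, a ligase of the same family as the human ISG15 ligase HERC5, went from 2.07, 1.97 and 2.10 TPM to 7.14, 7.87 and 8.52 TPM (1.71 ± 0.11). USP18, which removes ISG15 and blocks signalling at IFNAR2, went from 14.98, 15.5 and 15.1 TPM to 25.8, 26.7 and 25.3 TPM (0.75 ± 0.038). The groups did not overlap for any of these 4, as the selection required of ISG15 and HERC6 (62.9% of all tested genes did not overlap). SOCS3, an inhibitor of JAK kinases, rose by 0.58 ± 0.038. Of 17 tested genes of conjugation and feedback, 12 were called higher and 1 lower (median 0.38).

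Sensors of DNA and the enzymes that clear nucleic acids gave a divided picture. IFI16, a DNA sensor that is itself interferon-induced, went from 11.7, 10.7 and 11.1 TPM to 32.5, 35.96 and 36.4 TPM (1.61 ± 0.054). SAMHD1, which depletes nucleotides, rose by 0.98 ± 0.046. TREX1, which degrades DNA in the cytoplasm, went from 12.4, 13.9 and 12.7 TPM to 9.83, 8.52 and 8.67 TPM, and fell by 0.51 ± 0.064. RNASEH2A and RNASEH2C, subunits of the enzyme that removes RNA from DNA hybrids, fell by 0.62 ± 0.044 and 0.53 ± 0.049. Only 3 of the 14 tested genes were called higher and 6 lower, and TMEM173, which encodes the adaptor STING, was under 0.5 TPM in every library.

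Genes of antigen presentation moved apart. B2M, the shared light chain of MHC class I, was measured at 619, 609 and 614 TPM in control, 955, 1056 and 1073 TPM in siMENA11a and 434, 423 and 429 TPM in siMENA. The 3 groups did not overlap, with B2M 0.74 ± 0.044 higher in siMENA11a than in control (adjusted p = 1.17e-06) and 1.26 ± 0.044 higher than in siMENA. The heavy chain HLA-B went from 176, 177 and 173 TPM to 275, 305 and 329.6 TPM (0.79 ± 0.056), and HLA-C and HLA-F rose by 0.75 and 0.91. Reads of HLA genes can be shared between near-identical copies, so their single values are uncertain. MR1, which presents metabolites of microbes, rose by 1.18 ± 0.11. Of 17 genes of MHC class I and peptide loading, 10 were called higher and 3 lower (median 0.37, against -0.31 in siMENA).

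Peptide production went the other way. PSMB8, a catalytic subunit of the immunoproteasome, went from 92.8, 96.2 and 88.01 TPM to 36.6, 36.5 and 35.3 TPM, and fell by 1.34 ± 0.040 (adjusted p = 2.82e-08), and siMENA stood between the 2 at 62.3, 66.3 and 63.8 TPM. ERAP2, which trims peptides for loading, went from 15.4, 16.3 and 16.1 TPM to 6.35, 5.94 and 6.46 TPM, and fell by 1.28 ± 0.063. Of the 5 immunoproteasome genes 4 were called lower and 1 higher, and of 31 constitutive proteasome genes 19 were lower and 3 higher (medians -0.25 and -0.21). These lists fell in siMENA against control too, with medians of -0.36 and -0.15. There 5 and 22 of their genes were called lower and 0 and 2 higher. The list of checkpoint and NKG2D ligands was mixed, with 3 higher and 6 lower of 14 tested. CD274, which encodes PD-L1, rose by 0.59 ± 0.11 (adjusted p = 0.00173) and ULBP1, a ligand of the NKG2D receptor, by 0.58 ± 0.066. CD70 fell by 0.72 ± 0.11 and PVRL2, a ligand of DNAM-1 and TIGIT, by 0.46 ± 0.048.

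**Figure D4:**
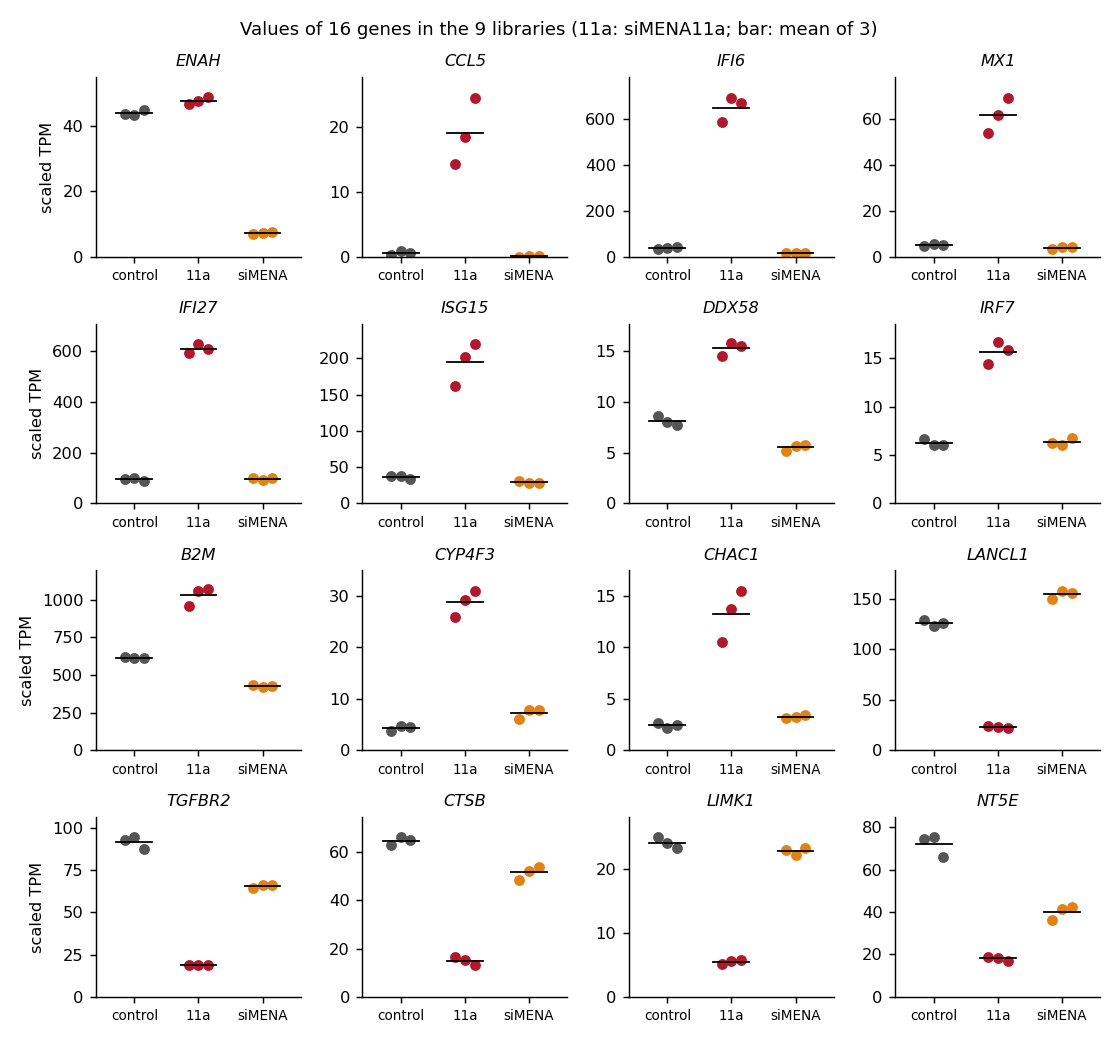
Scaled TPM (y axis, from 0) of 16 genes in each of the 3 control, 3 siMENA11a (11a) and 3 siMENA libraries, with a bar at each group's mean. For IFI6 the siMENA11a libraries lie between 586 and 689 TPM above controls of 35.9 to 41.7 TPM, and for LANCL1 they lie between 22.2 and 23.97 TPM below controls of 123 to 129 TPM.

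Outside the interferon response, 12 of the 25 largest rises belonged to other programmes. CYP4F3, which inactivates leukotriene B4, was measured at 3.67, 4.64 and 4.46 TPM in control, 25.99, 29.3 and 31 TPM in siMENA11a and 6.03, 7.89 and 7.74 TPM in siMENA. Its rise of 2.62 ± 0.11 in siMENA11a exceeded that in siMENA by 1.93 ± 0.11 in the direct contrast. PI3, the secreted elastase inhibitor elafin, was at 2.06, 1.54 and 2.59 TPM, 12.7, 13.4 and 11.1 TPM and 8.55, 5.87 and 7.32 TPM in the same order, and the direct contrast was 0.74 ± 0.16 (adjusted p = 0.00312). TNFSF18, the ligand of GITR on T cells, was at 0.101, 0.221 and 0.260 TPM in control and 1.501, 3.02 and 2.63 TPM in siMENA11a (2.02 ± 0.29). It passed the filter only through siMENA11a, as its siMENA mean was 0.26 TPM. SMPDL3B, a lipid phosphodiesterase, was at 0.633, 0.279 and 0.381 TPM, 2.57, 2.35 and 2.65 TPM and 2.39, 2.78 and 2.73 TPM. Its direct contrast was not called, at -0.048 ± 0.14 (adjusted p = 0.79). YBX2, LIPH, MAT1A, SCG5, KLHL35 and ANKRD2 rose by 1.67 to 1.73. KLHL35 too passed the filter only through siMENA11a, as its means of 0.26 TPM in control and 0.65 TPM in siMENA average under 0.5 TPM.

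Genes of the amino acid response driven by the factor ATF4 were higher in part. CHAC1, which breaks down glutathione, was measured at 2.66, 2.17 and 2.40 TPM in control, 10.52, 13.7 and 15.5 TPM in siMENA11a and 3.11, 3.19 and 3.44 TPM in siMENA (2.22 ± 0.13 against control, adjusted p = 8.01e-07). SESN2, which senses leucine and restrains mTORC1, went from 1.23, 1.09 and 0.881 TPM to 4.11, 4.71 and 5.30 TPM (1.73 ± 0.15). ASNS, asparagine synthetase, went from 14.9, 15.5 and 15.5 TPM to 28.1, 34.1 and 36.2 TPM (1.06 ± 0.083). These 3 genes did not overlap between the groups, as the selection required of CHAC1 and SESN2 (62.9% of all tested genes did not overlap). In each of the 3, siMENA11a library 1 was again the lowest of its group. CTH, which makes cysteine, rose by 1.03 ± 0.079 in siMENA11a and stood at 0.83 in siMENA, with a direct contrast of 0.20 ± 0.079 (adjusted p = 0.0583). Over the 33 tested members 21 were called higher and 6 lower (median 0.25, against -0.22 in siMENA). The 35 chaperones and other genes of the unfolded protein response, a neighbouring stress pathway, had 10 higher and 9 lower.

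Most lysosomal genes rose in small steps, with 2 large exceptions that fell. HEXA, a subunit of beta-hexosaminidase, went from 31.5, 31.5 and 31.4 TPM to 42.3, 42.1 and 43 TPM (0.43 ± 0.032). TPP1, a peptidase, went from 29.5, 30.99 and 31.1 TPM to 39.2, 40.9 and 42.4 TPM (0.41 ± 0.041). ATP6V1A, the catalytic subunit of the proton pump that acidifies lysosomes, went from 34.96, 34.7 and 33.5 TPM to 52.2, 51.5 and 51.2 TPM (0.58 ± 0.036). Of 43 lysosomal proteases and hydrolases 27 were called higher and 5 lower (median 0.18), and of 16 V-ATPase subunits 10 were higher and 1 lower (median 0.23). The exceptions were CTSB, the protease cathepsin B, and SUMF1, which activates sulfatases. CTSB was measured at 62.8, 66.3 and 64.8 TPM in control, 16.5, 15.1 and 13.1 TPM in siMENA11a and 48.5, 52.3 and 53.8 TPM in siMENA, and fell by 2.08 ± 0.073 (adjusted p = 7.46e-08). SUMF1 went from 12.03, 11.9 and 12.04 TPM to 3.23, 2.32 and 2.19 TPM, and fell by 2.04 ± 0.11. Both carry 3 sites of the 2 exon words in the 3′ UTR.

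The large falls are shown beside their sites. Of the 25 largest, 22 carry CCAAGGA or CAAGGAA in the 3′ UTR, where 6 of the 25 rises and 26.4% of all searched genes do, and the 3 without a site are TMEM2, KRT81 and LTB. Because the words were picked on this same comparison, the count of 22 follows in part from that choice. The sets were not matched for 3′ UTR length. Each line gives 29 bases of a 3′ UTR (GENCODE 29, GRCh38) with the searched words in capitals, both words as 8 bases in the first 5 and CAAGGAA alone in the last 3. The bases beside the capitals can match the exon too and are not marked. They are shown for genes of signalling, the cytoskeleton, adhesion and metabolism named below, and a match was not tested as a site of siRNA action.

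LANCL1 (chr2:210434390-210434418, minus strand): tccgttgctttCCAAGGAAacaaagagtc
TGFBR2 (chr3:30693855-30693883, plus strand): aagaaaaaagaCCAAGGAAtaacattctg
LIMK1 (chr7:74122459-74122487, plus strand): aaccgtgacgtCCAAGGAAccaaacccag
TMEM97 (chr17:28327627-28327655, plus strand): ccacctctaacCCAAGGAAaaaagagaaa
SUMF1 (chr3:4362115-4362143, minus strand): caaCCAAGGAAagtcttccccagtccaag
RHOA (chr3:49359937-49359965, minus strand): aggcgctaattCAAGGAAtttcttaactt
NT5E (chr6:85494346-85494374, plus strand): tttatcattcaCAAGGAAgttttaagcac
THBS1 (chr15:39596603-39596631, plus strand): caagaacagcaCAAGGAAaatcagtctaa

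The largest fall among those 25 was LANCL1, a glutathione-binding protein. It was measured at 129, 123 and 126 TPM in control, 23.97, 23.2 and 22.2 TPM in siMENA11a and 149.6, 158 and 156 TPM in siMENA. All siMENA libraries lay above the controls and all siMENA11a libraries far below, with log2 fold changes of -2.42 ± 0.038 against control (adjusted p = 6.7e-10) and -2.72 ± 0.038 against siMENA. TGFBR2, the receptor chain that binds TGF-beta, was measured at 92.9, 94.5 and 87.6 TPM in control, 19.1, 18.9 and 18.9 TPM in siMENA11a and 64.4, 65.9 and 65.9 TPM in siMENA. The log2 fold change in siMENA11a was -2.25 ± 0.034, and the 3 groups did not overlap. Its partner chain TGFBR1 was at 9.28, 8.21 and 8.34 TPM and 8.54, 8.43 and 8.35 TPM and was not called (-0.025 ± 0.061, adjusted p = 0.749). Among ligands of this family INHBA fell by 1.16 ± 0.085 and INHBB by 0.78 ± 0.047, and SKI, which represses SMAD targets, by 0.55 ± 0.043. Over 33 TGF-beta genes 13 were called lower and 7 higher (median -0.082). In siMENA against control 16 of them were lower and 9 higher (median -0.23). The lower calls in siMENA11a were 8 of the 12 members with a site and 5 of the 21 without one. Over all searched genes 27.1% of those without a site were called lower. With 1, 2 and 3 or more sites the shares were 36.8%, 41.9% and 49.5%, and the part of the sites was not tested.

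Several regulators of actin filaments, the machinery that hMENA belongs to, were lower. LIMK1, the kinase that switches cofilin off, was measured at 24.9, 23.9 and 23.2 TPM in control, 5.10, 5.53 and 5.82 TPM in siMENA11a and 22.96, 22.1 and 23.2 TPM in siMENA, and fell by 2.04 ± 0.051 (adjusted p = 9.45e-09). RHOA, the GTPase upstream of that kinase, was at 224, 229 and 227 TPM, 63.4, 57.8 and 55.05 TPM and 191, 188 and 197 TPM, and fell by 1.94 ± 0.047. CFL1, the cofilin of non-muscle cells, went from 789, 794 and 813 TPM to 543, 510.1 and 486 TPM, and fell by 0.64 ± 0.041. In all 3 the siMENA11a libraries lay below every control, as the selection required of LIMK1 and RHOA (62.9% of all tested genes did not overlap). RHOB, a relative of RHOA, fell by 0.90 ± 0.056 in siMENA11a and was 0.69 in siMENA against control, with a direct contrast of -1.59 ± 0.056. The other Ena/VASP family members VASP and EVL fell by 0.38 ± 0.030 and 0.36 ± 0.048. Of 21 LIM kinases, cofilins and slingshots 11 were called lower and 3 higher (median -0.14, against -0.12 in siMENA). Of 15 Ena/VASP genes and binding partners 9 were lower and 3 higher (median -0.16, against -0.14 in siMENA).

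Further along the filament, genes for capping and contraction fell as well. CAPZA1, a subunit of the protein that caps growing ends, went from 101, 97.98 and 94.98 TPM to 36.9, 38.2 and 35 TPM (-1.40 ± 0.040). MICAL2, which oxidises actin, fell by 1.40 ± 0.14, MYL9, a myosin light chain, by 1.20 ± 0.044, ARPC1A of the Arp2/3 complex by 1.16 ± 0.045 and the formin DIAPH1 by 1.10 ± 0.037. TPM1, a tropomyosin, was at 371, 361 and 355 TPM in control, 192, 191 and 189.6 TPM in siMENA11a and 60.1, 59.8 and 63.9 TPM in siMENA, so its fall by 0.92 ± 0.033 in siMENA11a was smaller than that in siMENA by 1.63 ± 0.033 in the direct contrast. Of 31 genes of actin, tropomyosins, capping and contraction 20 were called lower and 5 higher (median -0.22, against -0.36 in siMENA). By the direct contrast 17 of them were higher in siMENA11a than in siMENA and 9 lower. Of 27 Arp2/3, WAVE and formin genes 8 were higher and 9 lower.

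At the cell surface, NT5E, the enzyme CD73 that makes adenosine, was measured at 74.4, 75.6 and 66.2 TPM in control, 18.8, 18.5 and 17.1 TPM in siMENA11a and 36.5, 41.5 and 42.6 TPM in siMENA. The 3 groups did not overlap, and the log2 fold change against control was -1.96 ± 0.069 (adjusted p = 7.8e-08). THBS1, thrombospondin 1, an activator of latent TGF-beta, was at 464, 475 and 422 TPM, 126, 116 and 115 TPM and 240.0, 244 and 253 TPM, and fell by 1.92 ± 0.052. EPHB2, a receptor tyrosine kinase for ephrins, went from 7.09, 7.03 and 6.05 TPM to 1.41, 1.47 and 1.40 TPM (-1.90 ± 0.073). HRAS fell by 1.22 ± 0.055 and ROR1, another receptor kinase, by 1.06 ± 0.088, while DDR1, a collagen receptor kinase, rose by 0.58 ± 0.041. The list of receptor kinases and RAS pathway genes was close to the background, with 12 higher and 11 lower of 39 tested. PLAU, the protease urokinase, fell by 1.13 ± 0.12 and its receptor PLAUR rose by 0.58 ± 0.052. ITGA2, a collagen-binding integrin, rose by 0.86 ± 0.062, and of 28 integrins, syndecans and focal adhesion genes 10 were higher and 14 lower. The median of these 28 was -0.14, against -0.32 in siMENA, where 3 were higher and 22 lower.

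Epithelial genes moved in both directions. CRB3, an apical polarity protein, was measured at 1.26, 0.615 and 0.711 TPM in control, 3.61, 3.13 and 2.62 TPM in siMENA11a and 3.65, 3.30 and 2.43 TPM in siMENA. It rose by 1.43 ± 0.19, and the direct contrast between the knockdowns was 0.0043 ± 0.19 (adjusted p = 0.989). EPCAM, an epithelial adhesion molecule, rose by 0.80 ± 0.12, also with a direct contrast that was not called (-0.084 ± 0.12, adjusted p = 0.564). CLDN1, a tight junction claudin, went from 93.6, 92.3 and 88.2 TPM to 43.8, 43.5 and 44.96 TPM, and fell by 1.04 ± 0.031, and KRT81 fell by 1.72 ± 0.14. Of 30 junction and polarity genes 14 were called higher and 4 lower (median 0.13), and of 16 S100 proteins and secreted protease inhibitors 7 were higher and 0 lower. FN1 fell by 0.44 ± 0.096 and VIM by 0.22 ± 0.049, while ZEB1 was not called (0.038 ± 0.079, adjusted p = 0.706).

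The lymphotoxin and non-canonical NF-kappaB list had 2 higher and 8 lower of 11 tested. Its median of -0.56 was the lowest together with that of the mitosis list, also at -0.56. Without siMENA11a library 1 the lymphotoxin and mitosis medians were -0.53 and -0.55. The 9 lymphotoxin list members without a site had a median of -0.42, and the list's median in siMENA was -0.28. LTB, which encodes the membrane anchor of lymphotoxin, was measured at 5.75, 5.50 and 4.62 TPM in control, 1.61, 1.75 and 0.812 TPM in siMENA11a and 0.767, 0.0746 and 0.147 TPM in siMENA. It fell by 1.65 ± 0.30 against control (adjusted p = 0.00118), yet stood higher in siMENA11a than in siMENA, by 1.24 ± 0.30. Its receptor LTBR fell by 0.56 ± 0.061, MAP3K14, which encodes the kinase NIK, by 1.34 ± 0.051, and the subunits RELB and NFKB2 by 1.07 ± 0.074 and 0.67 ± 0.052. TNFRSF12A, the receptor of TWEAK, rose by 0.51 ± 0.053. In the canonical pathway 6 of 25 genes were higher and 10 lower, among them IL6, a cytokine, which fell by 0.57 ± 0.062, and IL8, a neutrophil chemokine, which fell by 0.62 ± 0.084. The median of this list was -0.092, against -0.28 in siMENA, where 4 were higher and 14 lower.

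Genes of cell division fell nearly throughout. CDC20, the activator that starts anaphase, was measured at 111, 114 and 111 TPM in control, 53.4, 48.3 and 45.5 TPM in siMENA11a and 95.5, 85.8 and 95.9 TPM in siMENA (-1.19 ± 0.061 against control). Of 48 mitosis genes 47 were called lower and 0 higher (median -0.56), and of 44 replication genes 42 were lower and 0 higher (median -0.49). The siMENA medians of these lists were -0.21 and -0.27, and 38 mitosis and 28 replication genes were lower in siMENA11a than in siMENA. Members without a site had medians of -0.55 and -0.47. In bulk libraries fewer dividing cells and less RNA of these genes per cell cannot be told apart.

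Most genes of sterol and fatty acid synthesis fell in siMENA11a. TMEM97, which binds the cholesterol transporter NPC1, was measured at 40.1, 39.8 and 37.8 TPM in control, 9.82, 9.51 and 7.25 TPM in siMENA11a and 36.3, 38.2 and 34.97 TPM in siMENA (-2.10 ± 0.095 against control). SQLE, squalene epoxidase, fell by 0.59 ± 0.041. Of 33 genes 25 were called lower and 4 higher (median -0.39, against 0.056 in siMENA), and 27 were lower than in siMENA with 2 higher. The exon words occur in 15 of the 33, and the 18 without them had a median of -0.39.

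Mitochondrial translation showed a similar split between the knockdowns. MRPL12, a protein of the large mitochondrial ribosomal subunit, was measured at 143, 136 and 134 TPM in control, 69.8, 62.3 and 57.2 TPM in siMENA11a and 135, 134 and 129.7 TPM in siMENA (-1.12 ± 0.063 against control). MRPS10 of the small subunit fell by 1.06 ± 0.049. Of 52 mitochondrial ribosomal proteins 32 were called lower and 5 higher (median -0.22, against -0.011 in siMENA), and 33 were lower than in siMENA. Respiratory chain subunits had 4 higher and 24 lower of 51 tested, and COX5A of complex IV fell by 0.87 ± 0.056. Among 64 cytosolic ribosomal proteins 18 were lower and 9 higher, and 1 was at least 2-fold lower. Their share of falls was near the 27.7% of all tested genes, which is not matched for their level. The gene at least 2-fold lower, RPLP0, a stalk protein of the large subunit, was at 766, 792 and 805 TPM in control, 365, 325 and 308 TPM in siMENA11a and 803, 787 and 801 TPM in siMENA (-1.25 ± 0.056 against control).

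RNA handling and other programmes changed in part. Of 14 genes of RNA interference 9 were called lower and 3 higher (median -0.33): DROSHA, which cuts primary microRNAs, fell by 0.42 ± 0.030 and XPO5, which exports them, by 0.52 ± 0.043, while AGO4 rose by 0.77 ± 0.063. Of 39 SR proteins and hnRNPs 24 were lower and 6 higher. TXNIP and ARRDC4, arrestins induced by glucose, rose by 1.61 ± 0.10 and 1.61 ± 0.12, and ARRDC4 did not pass the direct contrast with siMENA (0.10 ± 0.12, adjusted p = 0.484). EGR1, an immediate early factor, rose by 1.25 ± 0.14, also without a call in the direct contrast (-0.14 ± 0.14, adjusted p = 0.417). AKR1B10, an aldo-keto reductase of the NRF2 response, rose by 1.13 ± 0.11, though that list was divided (11 higher and 12 lower of 30 tested). RAB1B, a GTPase of transport from the endoplasmic reticulum, fell by 1.32 ± 0.048 and SRPR, the receptor of the signal recognition particle, by 1.12 ± 0.052. Targets of p53 had 7 higher and 3 lower of 24 tested, and genes of the BCL2 family and caspases 10 higher and 10 lower of 31 tested.

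**Figure D5:**
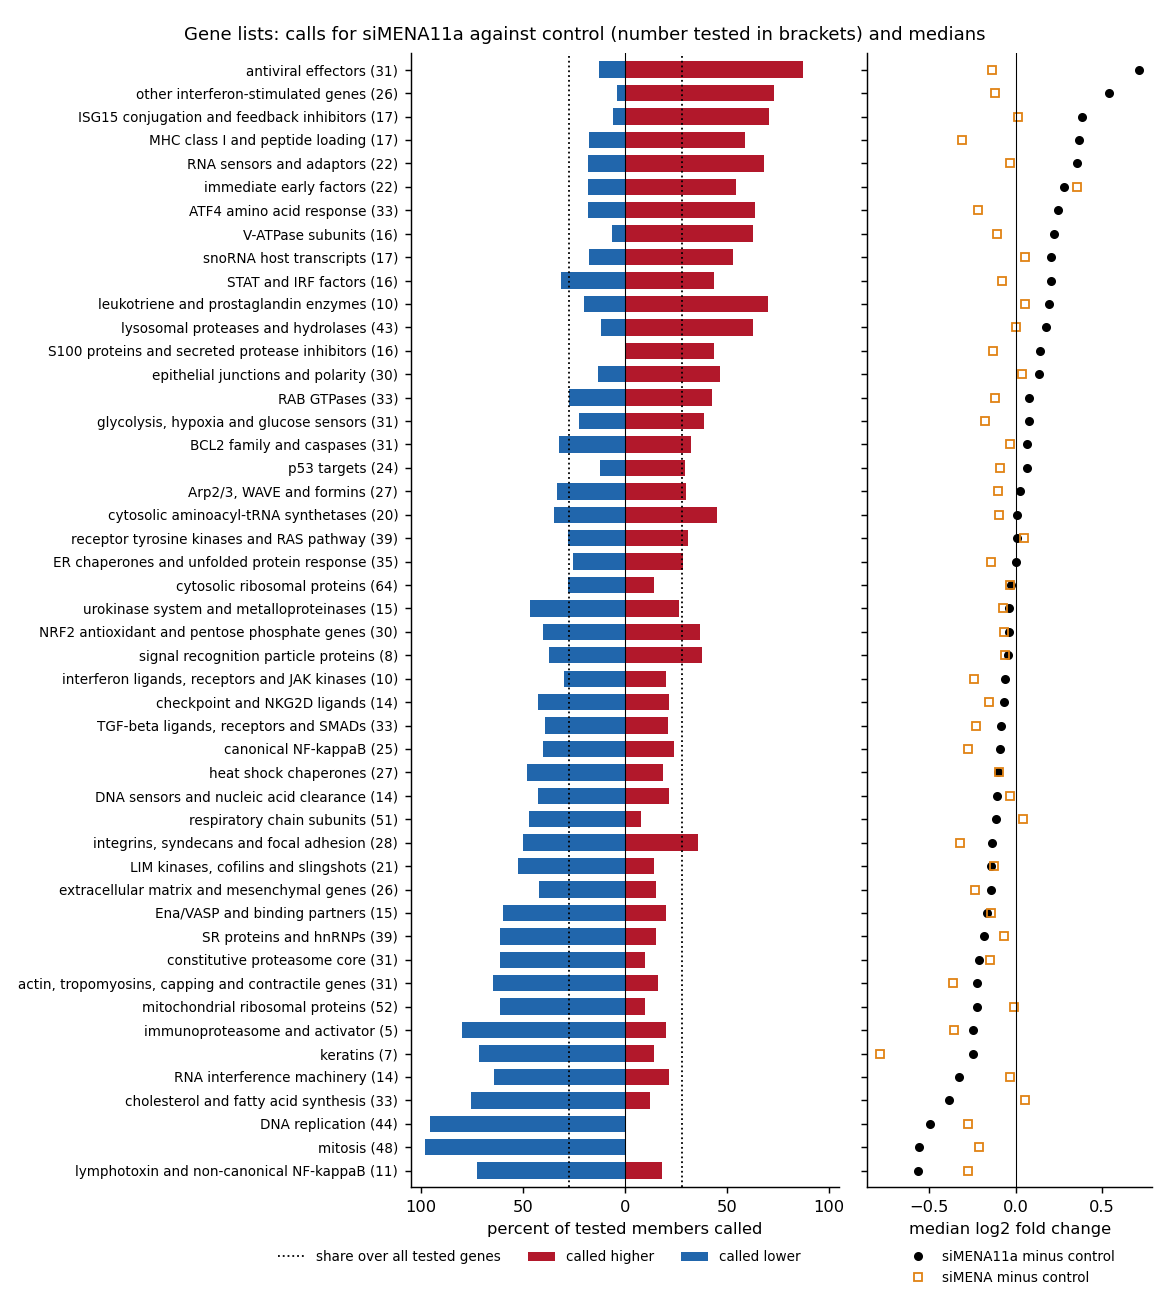
Left: percent of the tested members of each list that were called higher (red, right) or lower (blue, left) in siMENA11a against control, with dotted lines at the shares over all tested genes, 27.9% and 27.7%. Right: median log2 fold change of each list in siMENA11a (black) and siMENA (orange) against the shared controls. In siMENA11a antiviral effectors lie highest at 0.72 and the lymphotoxin and mitosis lists lowest, both at -0.56.

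Both knockdowns were set against the same 3 controls, so the direct contrast of siMENA11a with siMENA is the test of how they differ, and it called 58.7% of the 13498 genes. The 7 interferon pathway lists hold 136 tested genes, of which 85 were higher and 24 lower than control (median 0.37), and 91 were higher and 18 lower than in siMENA. In siMENA against control 24 of these 136 were higher and 51 lower (median -0.071).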

How the data were processed

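RNA from 9 libraries of H2030 cells was measured, 3 in each of 3 groups set by the sample titles. The deposited table holds TPM (transcripts per 1000000) for 29972 genes, per the file headers, and the authors' notes list kallisto and GRCh37, per the submitters' processing notes, while the name of the table points to another quantifier, RSEM, so which tool made these values is unsettled. Their versions, annotation and filters are not stated. TPM carries no depth, so depth is unknown and no counting interval is given. The table holds 0 other value columns.

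TPM were divided by median-of-ratios size factors from genes with a mean of at least 1 TPM. Genes whose scaled TPM averaged 0.5 or more over the 9 libraries were tested with limma 3.58.1 (R 4.3.3) on log2(value + 0.5), with 3 group means and a mean trend, and p-values were adjusted by Benjamini-Hochberg over all tested genes. Called means an adjusted p under 0.05. Values after ± are standard errors of log2 fold changes, which the pseudocount makes smaller for low genes. The scripts were tested on simulated data.

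Named genes are the 25 largest called rises and falls with a mean of at least 1 TPM and no overlap between libraries, the 5 members of a list with the lowest adjusted p and any past 2-fold, and genes of the pathways in the series' design text. Marker genes, BST2, IFNA1, IFNK, TMEM173 and the ribosomal RNAs were named after their values were seen. The members and lists were chosen with earlier results of these data known. 3′ UTRs came from GENCODE 29 and promoters from RefSeq. The coordinates are those of GRCh38 and not of the build in the notes. Genes were matched by symbol, 18708 of them to a 3′ UTR. Values of some named genes are not reported here.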

Additional observations from a re-analysis of the deposited data

How the results depend on the processing

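With other settings the number of genes called for siMENA11a against control stayed between 5636 and 8015, against 7503. Counts of genes at least 2-fold changed moved more. A pseudocount of 0.1 gave 549 in all and 292 higher, and one of 1 gave 105 higher, against 354 and 168. A filter at 5 TPM, which tests fewer genes, gave 214 and 67 higher, and TPM rescaled without small RNAs gave 591 and 397 higher. In TPM as deposited 1965 genes were called higher, against 3770, and 284 were at least 2-fold lower, against 186. There the log2 fold change of ENAH was -0.0144, the reverse of its sign elsewhere, and the cause was not tested.

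Leaving out 1 library at a time gave 6633 to 7036 calls, 3285 to 3514 higher and 3348 to 3522 lower. It gave 339 to 371 genes at least 2-fold changed, 158 to 181 higher and 181 to 194 lower. Against siMENA it gave 7147 to 7401 calls. Medians of the 33 gene lists at 0.1 or more from 0 kept their sign under all 3 other scalings. The median of the 17 snoRNA host transcripts was 0.21, and the only 2 with a searched 3′ UTR and neither exon word gave -0.22.

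The groups share replicate numbers, and same-numbered libraries correlated at 0.0060, 0.031 and 0.038 in their deviations from the group mean. All pairs of a siMENA11a and a control library ranged from -0.060 to 0.038. Library 2 and library 3 of siMENA11a correlated best with the control of their own number, and library 1 did not. With 3 libraries per group these values cannot settle whether the numbers mark pairs. With the replicate block 7309 genes were called, 7123 of them shared with the 7503, and 362 were at least 2-fold changed. Against siMENA the block gave 7732 calls, and it ended the call of 1 named gene, IRF1. TPM hold no read counts, so the precision of low values is unknown.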
